A study of Mus musculus with 6 samples.

Results

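Mouse neuromesodermal progenitors (NMPs) exposed for 2 h to 1 µM all-trans retinoic acid (RA) were compared with NMPs given the DMSO vehicle alone. The comparison takes 4 of the 6 RNA-seq samples of the series, chosen by their treatment labels, with 2 culture dishes per condition. The other 2 dishes received 25 nM RA for 2 h and are used here for the spread of the fit and for a direct comparison of the doses. In all 6 dishes, mouse embryonic stem cells (ESCs) had been cultured for 2 days with bFGF and for 1 day with bFGF and the WNT agonist CHIR99021, and both factors were withdrawn before the final 2 h in N2B27 medium with a retinoid-free supplement. The sample labels give the ESC strain as 129 R1, whereas the study's methods describe the cells differently, so the strain is uncertain. The methods call the duplicate dishes technical replicates, so errors and p-values describe the spread between dishes of 1 experiment and not between independent derivations. Total RNA depleted of ribosomal RNA was sequenced. The deposited files give, for each sample, an estimated count and an RPKM value (reads per kilobase of transcript, scaled to the number of mapped reads) for 30352 transcripts, and these were summed to 20631 genes. Differences were tested on the count sums, and levels are given as summed RPKM. Values after ± are standard errors of the log2 fold change.

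RA is a lipid-soluble derivative of vitamin A that enters the nucleus and binds RA receptors, which sit on DNA as heterodimers with retinoid X receptors. Without ligand these receptors hold corepressors at their target genes, and with ligand they exchange them for coactivators, so that transcription of direct targets can change without synthesis of new protein. In the caudal embryo, RA made by the somites opposes FGF and WNT signals and favours neural over mesodermal progeny of the NMPs. RA also controls its own level, because genes for its degradation and storage are among its best-known targets.

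The 4 samples compared held 34341789 to 42029348 estimated counts each, and the 25 nM RA samples 31753556 and 39498520. In the DMSO dishes the caudal progenitor gene *T* (Brachyury) was at 380.1 and 370.3 RPKM and *Nkx1-2* at 39.3 and 38.9 RPKM, while *Sox1*, which marks committed neural cells, was at 0.245 and 0.228 RPKM. The pluripotency gene *Pou5f1*, still present after 3 days, was at 432 and 458 RPKM. Of 6 markers of definitive endoderm all were expressed, with a summed level of 61.9 to 63.95 RPKM in DMSO and 48.7 to 51.4 RPKM with 1 µM RA, and 4 of them were lower with RA (3 with the offsets described further on). Markers of neural crest, blood and committed neural cells had summed levels of at most 0.766, 0.360 and 0.812 RPKM in any of the 4 dishes. Those of feeder fibroblasts summed to 5.86 to 6.14 RPKM in DMSO and 5.13 to 5.26 RPKM with 1 µM RA, and 2 of the 5 tested were called lower, though 0 with the offsets. Among all genes tested 10.6% were called lower and 8.6% higher. Because RNA was taken from whole dishes, fewer cells of a type and less RNA per cell cannot be told apart.

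At 2 h, 1 µM RA was accompanied by strong increases of few genes and by many smaller changes in both directions. Of 15143 genes tested, 1303 were higher with 1 µM RA (8.6% of the genes tested) and 1608 were lower (10.6%), at an adjusted p under 0.1 from edgeR's quasi-likelihood test with Benjamini-Hochberg adjustment, called the edgeR adjusted p from here on. In all 1303 higher genes both 1 µM RA dishes lay above both DMSO dishes in summed RPKM, and 1604 of the 1608 lower genes showed the opposite order. Among all genes tested the groups did not overlap in 8235 (54.4%). The median log2 fold change was 0.25 among the higher genes, a 1.19-fold difference, and -0.29 among the lower genes, a ratio of 0.817, against 0.001 among all genes tested. The balance between directions changed with the size of the difference, as the plot of called genes by size shows. Past a log2 fold change of 0.3, there were 555 higher and 773 lower genes. Beyond 0.5 the directions were nearly level, with 372 higher and 361 lower genes. Past 1, 175 genes were higher (1.16% of the genes tested) and 53 lower, and past 2 there were 52 and 6. A fall of more than 0.6 on the log2 scale was seen in 248 genes (1.64%). Which direction was the more frequent among all calls depended on the processing. With offsets for GC content and length, introduced further on, 1298 genes were higher and 1155 lower, and without 1 µM RA replicate 2 the numbers were 1529 and 1497. Without DMSO replicate 1 they were 713 higher and 923 lower, and without DMSO replicate 2 they were 681 and 970. With library sizes taken as total counts instead of by edgeR's TMM method, 975 genes were higher and 1874 lower, which moves the share of higher genes among the calls from 44.8% to 34.2%.

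**Figure D1:**
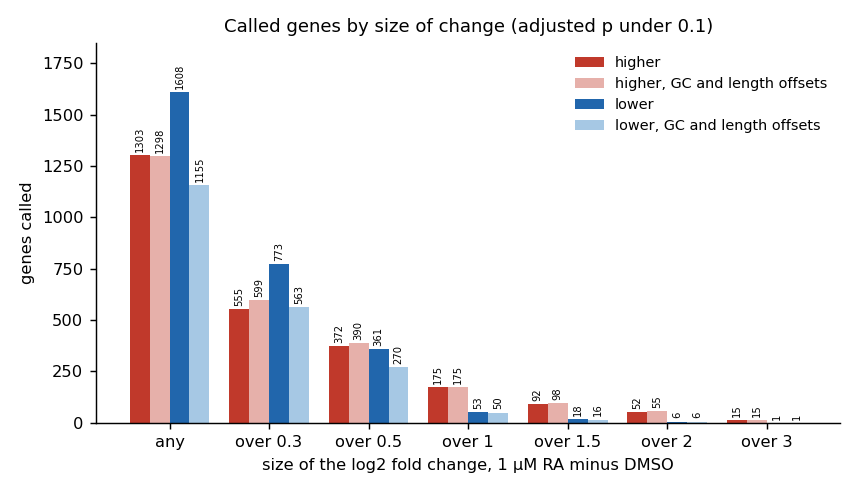
Number of called genes (y axis) whose log2 fold change between 1 µM RA and DMSO exceeds the size on the x axis, in red for higher and blue for lower genes, with pale bars for the fit that also holds offsets for GC content and transcript length. At any size, lower genes are the more numerous without offsets (1608 against 1303) and higher genes with them (1298 against 1155), while past 1 higher genes dominate in both fits (175 against 53, and 175 against 50).

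Strong changes in both directions were found more among weakly expressed genes than the calls as a whole. The 175 genes that rose by more than 1 had a median of 0.248 RPKM in DMSO, and 110 of them (62.9%) were under 0.5 RPKM, against 19.0% of all genes tested. Only 7 of them had been above 10 RPKM. With 1 µM RA their median was 0.966 RPKM. The 248 genes with the stronger fall had a median of 0.636 RPKM in DMSO, with 94 (37.9%) under 0.5 RPKM and 19 above 10 RPKM. Some excess of weakly expressed genes is built into these comparisons. At low counts only a large change can be called, and a gene may pass the count filter through the dishes of 1 condition. How much of the excess this gives was not tested. All 1303 higher genes together had a median of 9.01 RPKM in DMSO and all 1608 lower genes 4.60 RPKM, against 5.03 RPKM for all genes tested. Non-coding genes made up 28 of the higher and 62 of the lower genes. The plot of change against level shows the rise of weakly expressed genes on the left and the narrow band of small changes among abundant genes on the right.

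**Figure D2:**
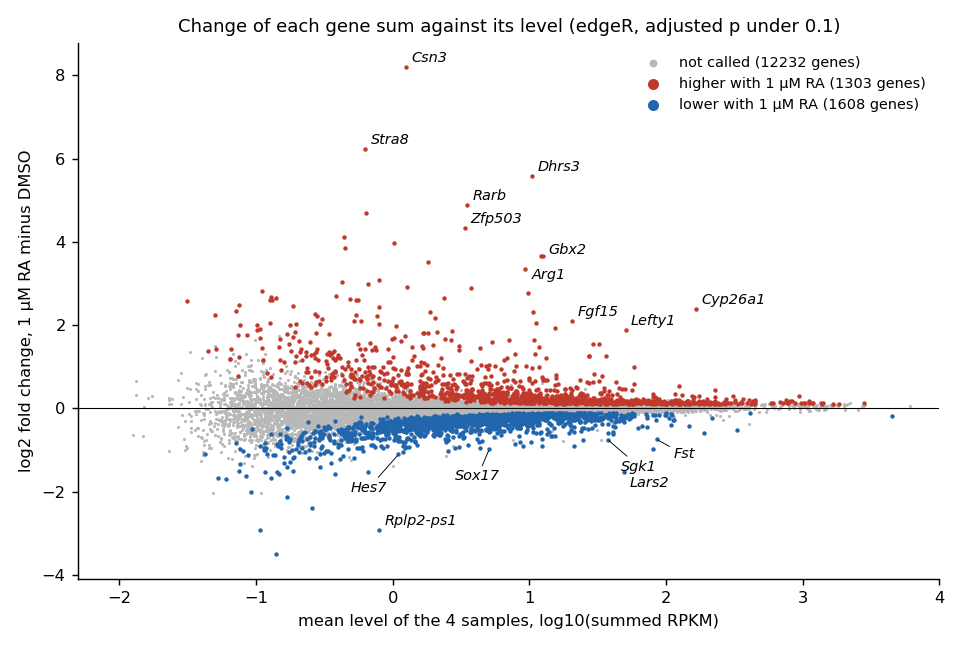
Each point is 1 of the 15143 genes tested, with the mean level of the 4 samples on a log10 scale (x axis, summed RPKM) and the log2 fold change between 1 µM RA and DMSO (y axis), coloured red or blue where called higher or lower. Among the called genes, points above 2 outnumber those below -2 by 52 to 6, and *Cyp26a1* and *Lefty1* are the labelled rising genes with the highest levels.

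GC content and length of the transcripts moved with the small changes. Across 11751 genes the log2 fold change had a Spearman correlation of -0.249 with GC content and of -0.263 with transcript length, which describes genes of the same libraries and carries no test. Among the 947 genes longest and richest in GC when each property was divided into 3 equal groups, 39.9% were lower and 7.5% higher, with a median of -0.128. Short genes of low GC content (919 genes) had a median of 0.087, with 19.7% higher and 0.979% lower. In long genes of high GC content the 1 µM RA samples had medians of -0.135 and -0.108 relative to DMSO, and the 25 nM RA samples -0.014 and -0.053. A second fit, chosen after seeing the data, included offsets for both properties, after which the correlations were 0.018 and 0.006. In that fit 1298 genes (8.57%) were higher and 1155 (7.63%) lower. It retained 171 of the 175 genes that rose by more than 1 and 222 of the 248 that fell by more than 0.6, but only 928 of the 1303 higher and 1015 of the 1608 lower genes in all, and 5 lower genes were called higher. Whether the relation to length and GC content comes from RA or from the libraries was not tested. Calls that were lost in this fit are pointed out beside the genes concerned.

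**Figure D3:**
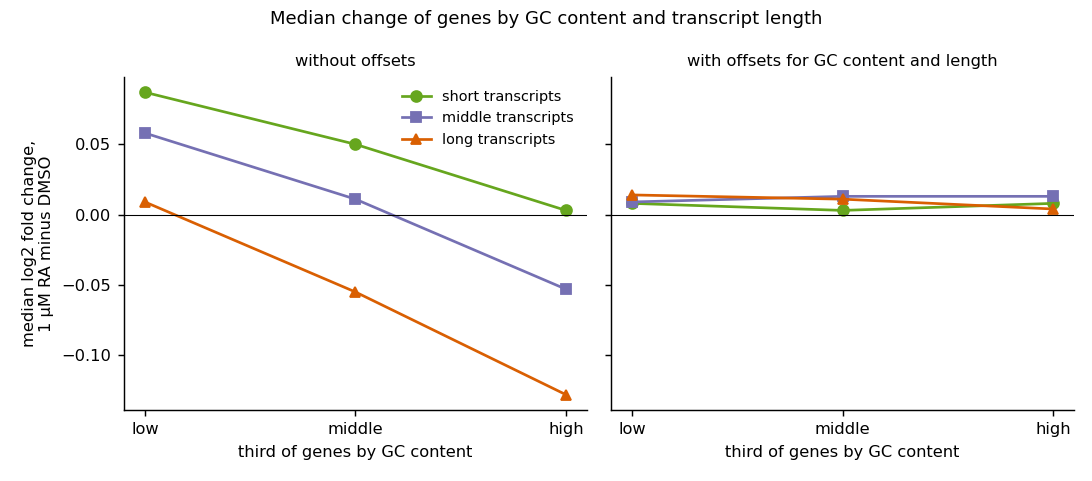
Median log2 fold change between 1 µM RA and DMSO (y axis) of genes divided into 3 equal groups by GC content (x axis) and by transcript length (coloured lines), without offsets on the left and with them on the right. Without offsets the median falls from 0.087 in short genes of low GC content to -0.128 in long genes of high GC content, and with offsets it stays between 0.003 and 0.014.

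Genes of the RA pathway itself were among the largest changes. The counts called in this and the later gene lists stand beside 8.6% higher and 10.6% lower among all genes tested. Of 17 tested genes for RA synthesis and retinoid handling 8 were higher and 1 lower, with a median log2 fold change of 0.32. *Cyp26a1*, which encodes the main RA-degrading enzyme of the early embryo, was at 52.6 and 52.3 RPKM in DMSO and 283.5 and 272 RPKM with 1 µM RA, for a log2 fold change of 2.40 ± 0.04 (edgeR adjusted p = 1.7e-16). Its neighbour *Cyp26c1* was at 0.399 and 0.577 RPKM in DMSO and 1.41 and 1.72 RPKM with 1 µM RA, a change of 1.69 ± 0.21 on the log2 scale (edgeR adjusted p = 1.8e-05). The dishes did not overlap for either gene, as in all 1303 higher genes. *Cyp26a1* was already among the well-expressed genes in DMSO whereas *Cyp26c1* was not. *Dhrs3* encodes a reductase that returns retinaldehyde to retinol and so limits RA synthesis. It was almost silent in DMSO, at 0.576 and 0.361 RPKM, and reached 20.8 and 20.2 RPKM, for a log2 fold change of 5.57 ± 0.11 (edgeR adjusted p = 2.4e-16). *Stra6*, the gene of a membrane receptor that imports retinol, was at 0.311 and 0.331 RPKM in DMSO and 0.809 and 0.868 RPKM with 1 µM RA, a change of 1.42 ± 0.17 on the log2 scale (edgeR adjusted p = 1.9e-05). In the other direction, *Rdh10*, whose enzyme makes the retinaldehyde from which RA is formed, was at 10.1 and 9.765 RPKM in DMSO and 7.18 and 7.17 RPKM with 1 µM RA and fell by 0.48 on the log2 scale (standard error 0.06, edgeR adjusted p = 1.8e-05). *Cyp26b1*, of a further RA-degrading enzyme, was named after its value was seen and was at 0.0288 and 0.01503 RPKM in DMSO and 0.113 and 0.145 RPKM with 1 µM RA, for a log2 fold change of 2.47 ± 0.42 (edgeR adjusted p = 0.00048). The binding proteins *Crabp1* and *Fabp5* were not called, with log2 fold changes of 0.18 and 0.04 (edgeR adjusted p = 0.12 and 0.62).

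Among the 6 receptor genes 2 were higher and 1 lower (3 and 0 with the offsets). *Rarb* was at 0.26 and 0.2145 RPKM in DMSO and 6.65 and 6.89 RPKM with 1 µM RA, a change of 4.89 ± 0.12 on the log2 scale (edgeR adjusted p = 9.4e-15), and *Rara* was at 3.55 and 3.29 RPKM in DMSO and 10.6 and 11.01 RPKM with 1 µM RA, for a log2 fold change of 1.64 ± 0.06 (edgeR adjusted p = 1.5e-12). Both genes were several times higher in each RA dish than in either DMSO dish. *Rarg*, the receptor gene with the highest DMSO level of the RAR family, was at 10.7 and 11.2 RPKM in DMSO and 11.95 and 12.1 RPKM with 1 µM RA and was not called (edgeR adjusted p = 0.14), although it was with the offsets (0.14 becoming 0.0066). *Rxra* was at 8.41 and 7.899 RPKM in DMSO and 6.545 and 7.39 RPKM with 1 µM RA and passed the test as lower, with log2 fold change -0.24 (edgeR adjusted p = 0.012). That call was lost with the offsets, without DMSO replicate 1 (log2 fold change -0.19) and without 1 µM RA replicate 1 (-0.16). Of 15 nuclear receptor cofactors 3 were higher and 4 lower (3 and 2 with the offsets). *Nrip1*, which encodes a corepressor that binds receptors in their ligand-bound state, was at 2.76 and 2.56 RPKM in DMSO and 8.11 and 7.93 RPKM with 1 µM RA, a change of 1.58 ± 0.06 on the log2 scale (edgeR adjusted p = 2.3e-12). The acetyltransferase coactivators *Crebbp* and *Ep300* were lower, *Crebbp* at 7.62 and 7.485 RPKM in DMSO and 5.12 and 5.22 RPKM with 1 µM RA with log2 fold change -0.55 (edgeR adjusted p = 1.6e-07) and *Ep300* at 4.565 and 4.91 RPKM in DMSO and 3.44 and 3.575 RPKM with 1 µM RA with log2 fold change -0.44 (edgeR adjusted p = 2.6e-05). The corepressor genes *Ncor1* and *Hdac3* were not called and differed by -0.01 and -0.01.

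Promoters of the pathway genes are shown because RA receptors bind direct repeats of a 6-base half-site. Windows of 300 bases, from 250 before to 50 after each annotated start, were taken from RefSeq (GRCm38.p6) and were at hand for 11307 of the 15143 genes tested. Both strands were searched for 2 half-sites in a row, each of them spelled AGGTCA, or GGGTCA, or alternatively AGTTCA or lastly GGTTCA, separated by 1, 2 or 5 bases. Such a repeat occurred near 49 of these genes (0.433%) and near 186 of all 27025 genes of the RefSeq table (0.688%). Of the 121 genes with a promoter window that rose by more than 1, 3 had one (2.48%, exact 95% binomial interval 0.514% to 7.07%), namely *Rarb*, *Cyp26a1* and *Cxcl10*, which encodes a chemokine. Of the 974 higher genes with a window 6 had one (0.616%), the others being *Casd1*, *Dph5* and *Tinagl1*. Of the 1198 lower genes with a window 0 had such a repeat, which allows a share of up to 0.307%. The call of *Casd1* was lost without 1 µM RA replicate 1 (log2 fold change 0.17), and that of *Dph5* with the offsets and without DMSO replicate 1 (0.18), DMSO replicate 2 (0.20) or 1 µM RA replicate 1 (0.12). A match describes the letters of the window and not binding. The 2 repeats with a spacer of 5 bases among the called genes are printed 5′ to 3′ along the gene's strand, with the repeat in capitals. In *Rarb* (minus strand, chr14:16575427-16575726) the repeat lies on the gene's strand from 53 to 37 bases before the start, and in *Cyp26a1* (plus strand, chr19:37697558-37697857) it reads on the opposite strand from 32 to 16 bases before the start.
*Rarb*: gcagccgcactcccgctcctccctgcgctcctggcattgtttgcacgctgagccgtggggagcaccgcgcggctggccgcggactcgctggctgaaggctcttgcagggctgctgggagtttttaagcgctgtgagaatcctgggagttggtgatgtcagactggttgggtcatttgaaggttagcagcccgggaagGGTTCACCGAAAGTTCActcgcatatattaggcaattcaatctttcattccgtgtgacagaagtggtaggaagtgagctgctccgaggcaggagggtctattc
*Cyp26a1*: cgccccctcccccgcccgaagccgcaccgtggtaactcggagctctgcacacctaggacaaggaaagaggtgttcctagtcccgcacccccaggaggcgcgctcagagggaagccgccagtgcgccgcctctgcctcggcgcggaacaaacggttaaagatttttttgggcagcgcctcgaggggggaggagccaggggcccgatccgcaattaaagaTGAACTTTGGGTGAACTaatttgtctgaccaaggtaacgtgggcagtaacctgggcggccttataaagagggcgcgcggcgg

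Of the genes tested with a window, 6 had a repeat with a spacer of 5 bases. Only *Rarb* and *Cyp26a1* among these were called, both higher. *Dhrs3* and *Gbx2* were also higher in each RA dish, and no repeat of these letters was found in their windows. In the *Cxcl10* window the half-sites are 1 base apart, on the gene's strand from 148 to 136 bases before the start, and *Cxcl10* was at 0.406 and 0.279 RPKM in DMSO and 0.984 and 0.724 RPKM with 1 µM RA, for a log2 fold change of 1.28 ± 0.30 (edgeR adjusted p = 0.0082).

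Hox genes of the 3' ends of the clusters, which pattern the hindbrain and cervical spinal cord, were nearly all higher among those tested. Those of the 5' ends were mostly too low to test. Of 12 genes of paralog groups 1 to 4, 7 could be tested and 6 of these were higher, with a median log2 fold change of 1.44. A gene nearly silent in DMSO can pass the count filter through the RA dishes alone. The filter therefore favours higher genes among the Hox genes tested, and these counts are no measure of all Hox genes. *Hoxa2* was at 0.252 and 0.346 RPKM in DMSO and 2.34 and 2.18 RPKM with 1 µM RA, a change of 2.92 ± 0.18 on the log2 scale (edgeR adjusted p = 5.5e-09). In the Hoxb cluster *Hoxb1* was at 4.59 and 3.403 RPKM in DMSO and 9.03 and 9.01 RPKM with 1 µM RA, for a log2 fold change of 1.15 ± 0.10 (edgeR adjusted p = 1.9e-07), from a DMSO level above that of the other Hox genes. *Hoxb2* rose by 1.44, *Hoxb3* by 1.00 and *Hoxb4* by 2.64 on the log2 scale, the last from 0.0303 and 0.0461 RPKM. *Hoxa3* was at 0.0611 and 0.102 RPKM in DMSO and 0.142 and 0.165 RPKM with 1 µM RA and was not called (edgeR adjusted p = 0.14). Of 27 genes of groups 5 to 13 only 3 could be tested and 1, *Hoxa5*, was higher, at 0.114 and 0.06297 RPKM in DMSO and 0.982 and 0.545 RPKM with 1 µM RA. Non-coding genes of the Hoxa cluster, named after their values were seen, rose too, with *Halr1* at chr6:52102949-52113684, *Hotairm1* at chr6:52158524-52162020 and *Hoxaas2* at chr6:52165674-52169451 (mm10) higher by 2.61, 2.77 and 2.67 on the log2 scale. Without DMSO replicate 1 the value of *Halr1* was 3.42. Where the counting did not use the strand, reads of such closely spaced genes could be shared, and use of the strand is not given in the sources used here.

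Other homeobox genes moved in both directions, 9 of 23 tested being higher and 6 lower. *Gbx2*, a gene of the posterior neural plate, was at 1.78 and 1.81 RPKM in DMSO and 23.3 and 22.2 RPKM with 1 µM RA, a change of 3.66 ± 0.07 on the log2 scale (edgeR adjusted p = 2.2e-16). *Meis2*, whose protein binds DNA together with Hox proteins, was at 0.852 and 0.896 RPKM in DMSO and 6.855 and 6.36 RPKM with 1 µM RA, for a log2 fold change of 2.89 ± 0.08 (edgeR adjusted p = 4.8e-14). *Cdx1*, a caudal gene that activates Hox genes, was at 6.025 and 6.69 RPKM in DMSO and 23.2 and 25.7 RPKM with 1 µM RA, a change of 1.94 ± 0.08 on the log2 scale (edgeR adjusted p = 1.3e-11), whereas its relative *Cdx2* was at 4.897 and 5.29 RPKM in DMSO and 4.89 and 5.48 RPKM with 1 µM RA and was not called (edgeR adjusted p = 0.9). In *Gbx2*, *Meis2* and *Cdx1* both RA dishes lay far above the DMSO dishes, and in *Cdx2* the groups overlapped. *Mnx1*, best known from motor neurons, was at 1.15 and 1.22 RPKM in DMSO and 4.24 and 4.31 RPKM with 1 µM RA, for a log2 fold change of 1.85 ± 0.12 (edgeR adjusted p = 7.8e-09). *Evx1*, a gene of the caudal streak, was at 10.1 and 10.04 RPKM in DMSO and 5.73 and 5.46 RPKM with 1 µM RA, a change of -0.86 ± 0.06 on the log2 scale (edgeR adjusted p = 1.2e-08). *Otx2*, which is expressed in the anterior epiblast and forebrain, was at 28.7 and 27.4 RPKM in DMSO and 18.9 and 19.8 RPKM with 1 µM RA, for a log2 fold change of -0.55 ± 0.05 (edgeR adjusted p = 6.3e-07). *Gsc*, an organizer gene, was at 28.6 and 30.1 RPKM in DMSO and 29.6 and 29.6 RPKM with 1 µM RA and was not called.

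**Figure D4:**
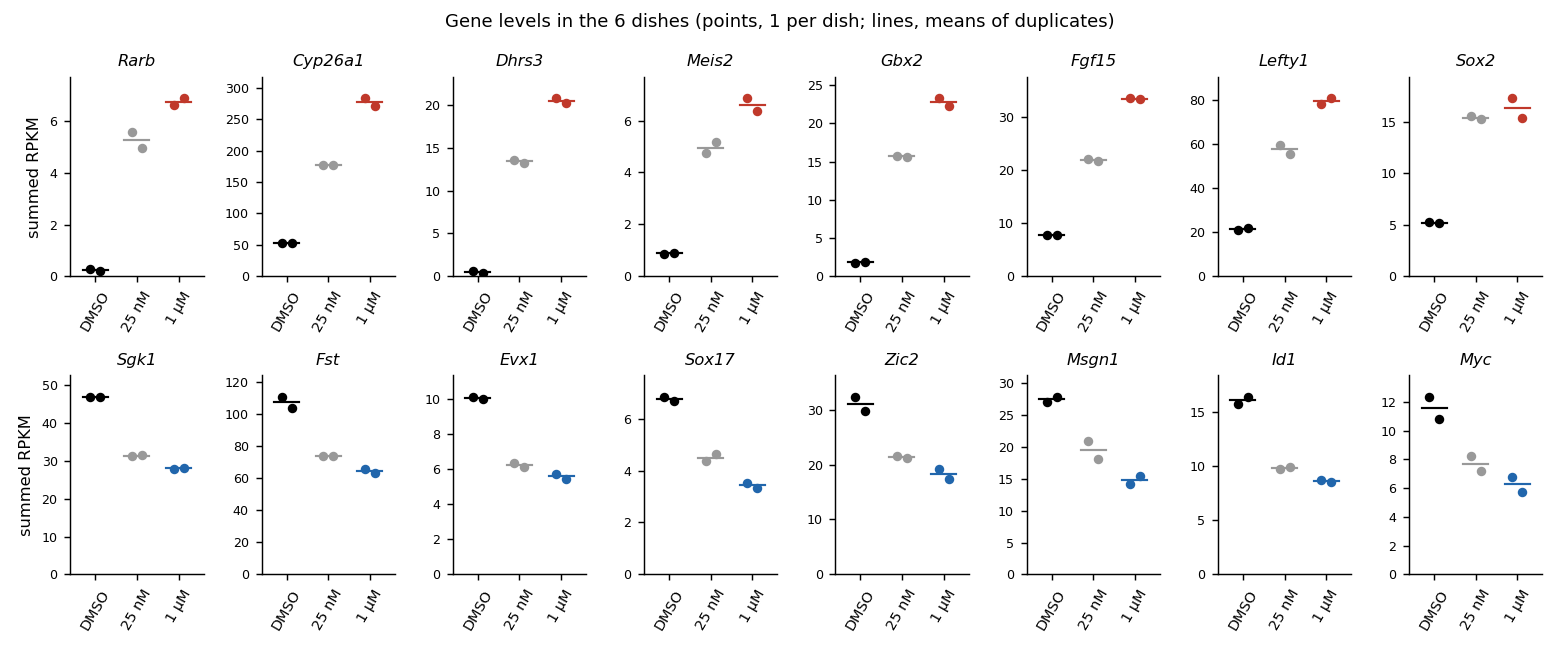
Summed RPKM (y axis, linear from 0) of 16 genes in each of the 6 dishes, with DMSO in black, 25 nM RA in grey and 1 µM RA in red or blue, and lines at the means of duplicates. In the upper row the 1 µM RA dishes of every gene lie above both DMSO dishes, as for *Dhrs3* at 20.8 and 20.2 RPKM, and in the lower row they lie below them, as for *Sgk1* at 27.8 and 28.2 RPKM.

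FGF ligands changed in opposite directions. FGFs keep caudal progenitors undifferentiated and signal through the kinase ERK. Of 17 genes for ligands and receptors 7 were higher and 4 lower (7 and 3 with the offsets). *Fgf15* was at 7.76 and 7.78 RPKM in DMSO and 33.4 and 33.3 RPKM with 1 µM RA, a change of 2.09 ± 0.05 on the log2 scale (edgeR adjusted p = 9.4e-15), and *Fgf4*, next to it on chromosome 7, was at 4.42 and 4.205 RPKM in DMSO and 17.8 and 18.04 RPKM with 1 µM RA, for a log2 fold change of 2.05 ± 0.05 (edgeR adjusted p = 1.9e-14). *Fgf3* also rose, from 12.4 and 12.4 to 18.2 and 18.3 RPKM with log2 fold change 0.55 (edgeR adjusted p = 4.4e-06). The ligands that were most abundant in DMSO were lower with RA. *Fgf8*, summed over its transcripts, was at 59.4 and 57.3 RPKM in DMSO and 51.25 and 46.7 RPKM with 1 µM RA, a change of -0.26 ± 0.05 on the log2 scale (edgeR adjusted p = 0.0016), and *Fgf5* was at 49.3 and 48.2 RPKM in DMSO and 37.03 and 35.4 RPKM with 1 µM RA, for a log2 fold change of -0.44 ± 0.04 (edgeR adjusted p = 1.5e-06). The difference in *Fgf8* was small, a ratio of 0.833, with both RA dishes below both DMSO dishes. Among receptors *Fgfr2* was at 1.18 and 1.15 RPKM in DMSO and 2.004 and 2.12 RPKM with 1 µM RA, a change of 0.80 ± 0.08 on the log2 scale (edgeR adjusted p = 2.8e-06), and *Fgfr3* was not called.

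Regulators of ERK signalling showed the same mixture, 7 of 18 being higher and 6 lower. *Dusp14*, a gene of a dual-specificity phosphatase, was at 3.795 and 3.31 RPKM in DMSO and 17.15 and 18.3 RPKM with 1 µM RA, for a log2 fold change of 2.31 ± 0.07 (edgeR adjusted p = 4.9e-13). *Dusp5*, which encodes a nuclear phosphatase of ERK, was at 8.51 and 7.39 RPKM in DMSO and 17.5 and 19.7 RPKM with 1 µM RA, a change of 1.22 ± 0.08 on the log2 scale (edgeR adjusted p = 5.3e-09). *Erf*, encoding an ETS-domain repressor that ERK inactivates, was at 16.2 and 15.9 RPKM in DMSO and 38.6 and 39 RPKM with 1 µM RA, for a log2 fold change of 1.27 ± 0.04 (edgeR adjusted p = 1.3e-12). Both RA dishes lay far above both DMSO dishes for these 3 inhibitors, whereas *Dusp4*, of a related phosphatase, was at 41.96 and 42.8 RPKM in DMSO and 32.3 and 33.35 RPKM with 1 µM RA and fell by 0.38 on the log2 scale (edgeR adjusted p = 7.8e-06). The ETS activators *Etv4* and *Etv5*, commonly read as outputs of FGF signalling, were at 28.5 and 28.5 RPKM in DMSO and 26.6 and 29.1 RPKM with 1 µM RA and at 35.96 and 32.7 RPKM in DMSO and 34.05 and 32.8 RPKM with 1 µM RA, and were not called (edgeR adjusted p = 0.62 and 0.57).

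Nodal and WNT components changed in both directions, most of them by less than the FGF and Hox genes just named. Of 19 genes of Nodal and activin signalling 6 were higher and 5 lower (7 and 2 with the offsets). *Lefty1*, which encodes a secreted Nodal inhibitor, was at 20.9 and 22 RPKM in DMSO and 78.5 and 80.9 RPKM with 1 µM RA, a change of 1.89 ± 0.05 on the log2 scale (edgeR adjusted p = 1.4e-14), and *Lefty2* was at 36 and 39.1 RPKM in DMSO and 51.6 and 54.4 RPKM with 1 µM RA, for a log2 fold change of 0.49 ± 0.05 (edgeR adjusted p = 2.5e-06). *Nodal* itself was at 17.85 and 16.95 RPKM in DMSO and 24.2 and 23.6 RPKM with 1 µM RA, a change of 0.45 ± 0.05 on the log2 scale (edgeR adjusted p = 3.8e-06), and *Skil*, of a SMAD-binding repressor, was at 25.4 and 24.9 RPKM in DMSO and 44.3 and 42.3 RPKM with 1 µM RA, for a log2 fold change of 0.78 ± 0.04 (edgeR adjusted p = 5.4e-10). The ligand and these inhibitory genes were higher in the same dishes. *Fst*, the gene of the activin antagonist follistatin and the lower gene with the highest level among the 15 most significant, was at 110.5 and 103.5 RPKM in DMSO and 65.65 and 63.01 RPKM with 1 µM RA, a change of -0.75 ± 0.04 on the log2 scale (edgeR adjusted p = 1.5e-09). *Cer1*, of another secreted Nodal and BMP antagonist, was at 17.3 and 15.4 RPKM in DMSO and 12.2 and 12.7 RPKM with 1 µM RA, for a log2 fold change of -0.40 ± 0.06 (edgeR adjusted p = 0.00021). The coreceptor gene *Tdgf1* was at 159.8 and 149 RPKM in DMSO and 155 and 159 RPKM with 1 µM RA and was not called.

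Of 16 WNT ligand genes 4 were higher and 1 lower (6 and 2 with the offsets). The higher calls of *Wnt3a* and *Wnt7b* were not stable, and DESeq2 called neither. Leaving out 1 library at a time gave log2 fold changes of 0.17 to 0.25 for *Wnt3a* and 0.37 to 0.88 for *Wnt7b*. *Wnt8a*, a ligand of the caudal epiblast, was at 21.02 and 21.8 RPKM in DMSO and 52.97 and 50.1 RPKM with 1 µM RA, a change of 1.26 ± 0.05 on the log2 scale (edgeR adjusted p = 6.1e-12), and *Wnt3* was at 9.13 and 9.54 RPKM in DMSO and 6.95 and 7.215 RPKM with 1 µM RA, for a log2 fold change of -0.40 ± 0.05 (edgeR adjusted p = 5.1e-05). Among 26 WNT targets and modulators 7 were higher and 11 lower, with a median of -0.24. *Lef1*, encoding a nuclear effector of the pathway, was at 17.1 and 15.8 RPKM in DMSO and 11.2 and 11.3 RPKM with 1 µM RA, a change of -0.58 ± 0.05 on the log2 scale (edgeR adjusted p = 3.3e-07). *Sp5* and *Rspo3*, named after their values were seen, were at 18.9 and 17.3 RPKM in DMSO and 12.2 and 10.6 RPKM with 1 µM RA and at 13.3 and 13.3 RPKM in DMSO and 9.23 and 8.62 RPKM with 1 µM RA, and fell by 0.67 and 0.58. The 7 higher members included repressors and modulators of the pathway. *Zfp503*, of a zinc-finger corepressor, was at 0.327 and 0.303 RPKM in DMSO and 6.81 and 6.03 RPKM with 1 µM RA, for a log2 fold change of 4.33 ± 0.11 (edgeR adjusted p = 1.1e-14), and its relative *Zfp703* was at 0.9995 and 1.05 RPKM in DMSO and 2.97 and 2.92 RPKM with 1 µM RA, a change of 1.51 ± 0.10 on the log2 scale (edgeR adjusted p = 1.2e-08). *Dact1* and *Dact2*, which encode modulators of the WNT effector Dishevelled, rose by 0.96 and 1.01, and *Tle6*, of a Groucho-family corepressor, by 2.03. *Tcf7* was at 16.5 and 15.1 RPKM in DMSO and 16.3 and 16.9 RPKM with 1 µM RA and was not called.

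Genes of BMP signalling were mostly not called, with 2 of 21 higher and 7 lower (2 and 6 with the offsets). The share of higher genes was near the 8.6% of all genes tested, of which 10.6% were lower. *Id1*, a direct BMP target encoding an inhibitor of helix-loop-helix factors, was at 15.8 and 16.45 RPKM in DMSO and 8.71 and 8.597 RPKM with 1 µM RA, for a log2 fold change of -0.91 ± 0.07 (edgeR adjusted p = 1.1e-07). *Bmp4* was at 1.46 and 1.41 RPKM in DMSO and 0.809 and 0.856 RPKM with 1 µM RA, a change of -0.80 ± 0.15 on the log2 scale (edgeR adjusted p = 0.0011). Both fell in each RA dish, while the effectors *Smad1* and *Smad5* were not called and differed by 0.02 and -0.02. *Nbl1*, of a secreted BMP antagonist, was at 0.893 and 0.818 RPKM in DMSO and 2.33 and 2.52 RPKM with 1 µM RA, for a log2 fold change of 1.49 ± 0.14 (edgeR adjusted p = 7.7e-07).

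Notch and segmentation clock genes were lower in 11 of 21 and higher in 3 (12 and 4 with the offsets), with a median of -0.41. The clock drives the rhythmic formation of somites from presomitic mesoderm. *Lfng*, which encodes a glycosyltransferase that modifies Notch, was at 15.1 and 15.7 RPKM in DMSO and 8.71 and 9.98 RPKM with 1 µM RA, a change of -0.73 ± 0.06 on the log2 scale (edgeR adjusted p = 1.6e-07). *Hes7*, of a clock repressor, was at 1.49 and 1.52 RPKM in DMSO and 0.645 and 0.755 RPKM with 1 µM RA, for a log2 fold change of -1.11 ± 0.24 (edgeR adjusted p = 0.0043). *Jag1* was at 12.6 and 12.7 RPKM in DMSO and 8.37 and 8.83 RPKM with 1 µM RA, a change of -0.56 ± 0.05 on the log2 scale (edgeR adjusted p = 1.3e-07). All of these separated the dishes without overlap, as did 1604 of the 1608 lower genes. *Dll3* and *Notch1* fell by 0.47 and 0.50, whereas *Dll1*, the main ligand, was at 18.2 and 17.5 RPKM in DMSO and 18.05 and 18.55 RPKM with 1 µM RA and was not called (edgeR adjusted p = 0.74).

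Of 25 genes of the primitive streak and mesoderm 13 were lower and 8 higher (12 and 8 with the offsets), with a median of -0.24. *Msgn1*, a master gene of presomitic mesoderm, was at 26.99 and 27.8 RPKM in DMSO and 14.1 and 15.4 RPKM with 1 µM RA, for a log2 fold change of -0.90 ± 0.08 (edgeR adjusted p = 3.4e-07). *Mesp1* was at 47.85 and 49.4 RPKM in DMSO and 31.25 and 34.2 RPKM with 1 µM RA, a change of -0.58 ± 0.05 on the log2 scale (edgeR adjusted p = 4.6e-07), and *Tbx6*, which favours mesodermal over neural fate, was at 9.035 and 8.15 RPKM in DMSO and 5.78 and 6.06 RPKM with 1 µM RA, for a log2 fold change of -0.55 ± 0.07 (edgeR adjusted p = 4.4e-05). *T* stayed among the uncalled genes at 380.1 and 370.3 RPKM in DMSO and 373.5 and 367 RPKM with 1 µM RA, a change of -0.03 ± 0.04 on the log2 scale (edgeR adjusted p = 0.7). Of 5 tested markers of paraxial mesoderm 3 were higher and 2 lower. *Meox1*, a gene of early somites, was at 0.0967 and 0.107 RPKM in DMSO and 0.4904 and 0.8345 RPKM with 1 µM RA, for a log2 fold change of 2.69 ± 0.33 (edgeR adjusted p = 1.9e-05). *Tcf15* was at 1.75 and 1.57 RPKM in DMSO and 4.26 and 4.59 RPKM with 1 µM RA, a change of 1.40 ± 0.14 on the log2 scale (edgeR adjusted p = 1.5e-06), and *Foxc1* and *Foxc2* rose by 0.60 and 0.82. *Meox1* remained under 1 RPKM with 1 µM RA. *Tal2*, of a basic helix-loop-helix factor, was at 0.1697 and 0.06199 RPKM in DMSO and 1.99 and 1.87 RPKM with 1 µM RA, for a log2 fold change of 3.96 ± 0.30 (edgeR adjusted p = 5.4e-08). Without DMSO replicate 1 the log2 fold change of *Tal2* was 4.89. *Cited2* and *Sall1* fell by 0.82 and 0.67 on the log2 scale.

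Endodermal and node genes were lower in 6 of 13 and higher in 2 (5 and 2 with the offsets), with a median of -0.40. *Sox17*, a defining gene of definitive endoderm, was at 6.84 and 6.675 RPKM in DMSO and 3.53 and 3.34 RPKM with 1 µM RA, a change of -0.98 ± 0.07 on the log2 scale (edgeR adjusted p = 1.5e-08). *Foxa2* was at 13.9 and 14.96 RPKM in DMSO and 9.76 and 9.799 RPKM with 1 µM RA, for a log2 fold change of -0.56 ± 0.06 (edgeR adjusted p = 2e-06), and *Foxj1*, needed for motile cilia as in the node, was at 3.95 and 3.84 RPKM in DMSO and 2.57 and 2.71 RPKM with 1 µM RA, a change of -0.57 ± 0.08 on the log2 scale (edgeR adjusted p = 8.6e-05). *Cxcr4* was at 13.6 and 13.3 RPKM in DMSO and 11.7 and 14.1 RPKM with 1 µM RA and was not called. Of the higher genes, *Prdm1*, which encodes a transcriptional repressor, was at 0.888 and 0.949 RPKM in DMSO and 3.32 and 3.225 RPKM with 1 µM RA, for a log2 fold change of 1.83 ± 0.08 (edgeR adjusted p = 3.8e-11).

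Neural genes were led by *Sox2*, which NMPs share with neural progenitors. It was at 5.21 and 5.198 RPKM in DMSO and 17.25 and 15.35 RPKM with 1 µM RA, a change of 1.64 ± 0.07 on the log2 scale (edgeR adjusted p = 7.2e-12). Its relatives *Sox3*, at 5.01 and 4.76 RPKM in DMSO and 5.02 and 4.32 RPKM with 1 µM RA, and *Sox1* were not called (edgeR adjusted p = 0.66 and 0.51), and *Pax6* was at 0.05635 and 0.0484 RPKM in DMSO and 0.07703 and 0.0885 RPKM with 1 µM RA. Of 20 tested neural genes 8 were higher and 3 lower. *Ngfr*, of a neurotrophin receptor, rose by 1.80 on the log2 scale and *Sox13* rose from 1.397 and 1.32 to 3.302 and 2.996 RPKM, and the growth factor gene *Mdk*, at 199 and 192 RPKM in DMSO and 266 and 263.5 RPKM with 1 µM RA, rose by 0.44. *Sox21* was at 0.702 and 0.791 RPKM in DMSO and 0.438 and 0.336 RPKM with 1 µM RA, for a log2 fold change of -0.95 ± 0.17 (edgeR adjusted p = 0.00075). The Zic genes, which encode zinc-finger factors of the epiblast and neural plate, went the other way in 3 of 4 tested. *Zic2* was at 32.3 and 29.7 RPKM in DMSO and 19.2 and 17.4 RPKM with 1 µM RA, a change of -0.77 ± 0.05 on the log2 scale (edgeR adjusted p = 2e-08). *Zic5*, the neighbour of *Zic2*, was at 6.65 and 6.95 RPKM in DMSO and 3.98 and 4.45 RPKM with 1 µM RA, for a log2 fold change of -0.70 ± 0.07 (edgeR adjusted p = 2.5e-06). *Zic1* was near 0 in all dishes and was not called. Taking all of the NMP markers, 5 of 9 tested were higher and 2, *Evx1* and *Fgf8*, lower. The higher ones include *Wnt3a*, which DESeq2 did not call. *Nkx1-2* was at 39.3 and 38.9 RPKM in DMSO and 80.55 and 74.8 RPKM with 1 µM RA, a change of 0.98 ± 0.05 on the log2 scale (edgeR adjusted p = 1e-10).

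Most pluripotency factors were not called. Of 25 genes 4 were higher and 3 lower, against 8.6% and 10.6% of all genes tested. Their median was 0.045, and *Pou5f1*, *Nanog* and *Lin28a* differed by 0.03, 0.06 and 0.04. *Tet2*, of a dioxygenase that oxidizes 5-methylcytosine, was at 0.795 and 0.672 RPKM in DMSO and 2.59 and 2.65 RPKM with 1 µM RA, for a log2 fold change of 1.82 ± 0.07 (edgeR adjusted p = 1.1e-11). *Tet1* was at 4.66 and 5.09 RPKM in DMSO and 3.92 and 3.805 RPKM with 1 µM RA, a change of -0.34 ± 0.05 on the log2 scale (edgeR adjusted p = 0.00026), so that the more abundant *Tet1* fell while *Tet2* rose. *Eras*, of a Ras-like protein of ESCs, was at 6.02 and 6.38 RPKM in DMSO and 12.5 and 12.7 RPKM with 1 µM RA, for a log2 fold change of 1.02 ± 0.08 (edgeR adjusted p = 8.9e-08). *Klf5* was at 4.05 and 3.52 RPKM in DMSO and 1.91 and 2.04 RPKM with 1 µM RA, a change of -0.95 ± 0.11 on the log2 scale (edgeR adjusted p = 1.3e-05).

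The most significant falls included genes of a signalling kinase, of matrix proteins and of RNA and DNA binding proteins. *Sgk1*, which encodes a serum- and glucocorticoid-induced kinase, had the smallest p of all lower genes. It was at 46.9 and 46.8 RPKM in DMSO and 27.85 and 28.2 RPKM with 1 µM RA, for a log2 fold change of -0.75 ± 0.04 (edgeR adjusted p = 8.6e-10), while the related *Akt1* and *Akt2* were not called and differed by -0.04 and -0.03. *Adamts15*, of a secreted metalloproteinase, was at 5.79 and 5.68 RPKM in DMSO and 3.03 and 2.93 RPKM with 1 µM RA, a change of -0.95 ± 0.05 on the log2 scale (edgeR adjusted p = 1.5e-09). *Fn1*, the gene of fibronectin, was at 47.98 and 51.1 RPKM in DMSO and 32.1 and 33.1 RPKM with 1 µM RA, for a log2 fold change of -0.61 ± 0.05 (edgeR adjusted p = 9.6e-08). Groups that did not overlap were a condition for naming these genes, and a choice by small p favours duplicates that lie close together. *Zfp36l2*, encoding a protein that promotes mRNA decay, was at 13.5 and 12.5 RPKM in DMSO and 7.77 and 7.17 RPKM with 1 µM RA, a change of -0.81 ± 0.06 on the log2 scale (edgeR adjusted p = 2.3e-08). *Zfp608*, *Prob1*, *Bahcc1* and *Kcna1* were also among the 15 most significant lower genes, with falls of 0.81, 0.80, 0.68 and 0.91 on the log2 scale, *Kcna1* from 1.55 and 1.56 RPKM.

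Immediate early genes, which respond to growth factors within minutes, were lower in 14 of 33 and higher in 8 (12 and 8 with the offsets), with a median of -0.23. *Arc* was at 3.13 and 3.67 RPKM in DMSO and 1.58 and 1.77 RPKM with 1 µM RA, for a log2 fold change of -1.02 ± 0.11 (edgeR adjusted p = 3.4e-06), and *Ier5* was at 5.11 and 5.23 RPKM in DMSO and 3.18 and 3.08 RPKM with 1 µM RA, a change of -0.73 ± 0.07 on the log2 scale (edgeR adjusted p = 6.5e-07). The Egr genes and *Nr4a1*, named after their values were seen, were low in DMSO and lower with RA. *Egr1* was at 1.03 and 0.9003 RPKM in DMSO and 0.495 and 0.526 RPKM with 1 µM RA, and *Egr1*, *Egr2* and *Egr3* fell by 0.93, 0.95 and 1.30 on the log2 scale (edgeR adjusted p = 0.00042, 0.0013 and 0.00044). *Nr4a1* was at 3.26 and 3.15 RPKM in DMSO and 2.103 and 1.73 RPKM with 1 µM RA, for a log2 fold change of -0.75 ± 0.10 (edgeR adjusted p = 6.3e-05). Other early genes rose. *Gadd45a* was at 6.501 and 6.025 RPKM in DMSO and 17.15 and 14.1 RPKM with 1 µM RA, a change of 1.31 ± 0.09 on the log2 scale (edgeR adjusted p = 2.4e-08), *Atf3* was at 4.61 and 3.92 RPKM in DMSO and 8.36 and 8.104 RPKM with 1 µM RA, for a log2 fold change of 0.93 ± 0.08 (edgeR adjusted p = 2.6e-07), and *Ier5l* was at 7.57 and 7.95 RPKM in DMSO and 16.2 and 14.96 RPKM with 1 µM RA, a change of 1.00 ± 0.08 on the log2 scale (edgeR adjusted p = 5.3e-08). The Myc family divided as well. *Myc* was at 12.35 and 10.8 RPKM in DMSO and 6.79 and 5.75 RPKM with 1 µM RA, for a log2 fold change of -0.90 ± 0.08 (edgeR adjusted p = 6.5e-07), whereas *Mycn*, the more abundant of the pair, was at 21.7 and 21.9 RPKM in DMSO and 33.3 and 33.1 RPKM with 1 µM RA, a change of 0.60 ± 0.04 on the log2 scale (edgeR adjusted p = 2.7e-08). *Max*, whose protein pairs with both, was at 18.8 and 18.1 RPKM in DMSO and 18.5 and 18.4 RPKM with 1 µM RA and was not called.

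Hypoxia and glycolysis genes were higher in 14 of 21, mostly by small amounts, and lower in 1, with a median of 0.30. *Adm*, the gene of the vasodilator peptide adrenomedullin, was at 0.534 and 0.787 RPKM in DMSO and 3.92 and 4.299 RPKM with 1 µM RA, for a log2 fold change of 2.65 ± 0.16 (edgeR adjusted p = 3.6e-09). *Bhlhe40* was at 4.415 and 3.88 RPKM in DMSO and 9.73 and 9.56 RPKM with 1 µM RA, a change of 1.21 ± 0.07 on the log2 scale (edgeR adjusted p = 2e-09). The others were weaker, with *Slc2a3*, of a glucose transporter, at 39.5 and 40.7 RPKM in DMSO and 55.8 and 55.2 RPKM with 1 µM RA, for a log2 fold change of 0.46 ± 0.04 (edgeR adjusted p = 2.8e-07), and *Slc2a1* at 71.1 and 70.04 RPKM in DMSO and 88.2 and 90.75 RPKM with 1 µM RA, a change of 0.34 ± 0.04 on the log2 scale (edgeR adjusted p = 2e-05). *Bnip3* rose by 0.74 and *Pfkfb3*, of a regulator of glycolytic flux, by 0.61. The lower member was *Egln3*, of a prolyl hydroxylase, named after its value was seen, with log2 fold change -0.26 (edgeR adjusted p = 0.031), a call that was lost without DMSO replicate 1 (-0.23) and without 1 µM RA replicate 1 (-0.25). *Hif1a* was not called, with log2 fold change 0.06 (edgeR adjusted p = 0.4). *Eno1* was at 271 and 265 RPKM in DMSO and 209 and 312 RPKM with 1 µM RA, so that the RA dishes lay on either side of the DMSO dishes.

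The plot of gene lists shows how these groups compare. The share of tested members called higher was above the 8.6% of all genes in lists such as Hox groups 1 to 4 and hypoxia, and the share called lower was above 10.6% in lists such as the Notch, Zic and guidance genes. Lists chosen with results of these data known are not independent evidence of their direction. Among members nearly silent in DMSO, the count filter also favours higher genes.

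**Figure D5:**
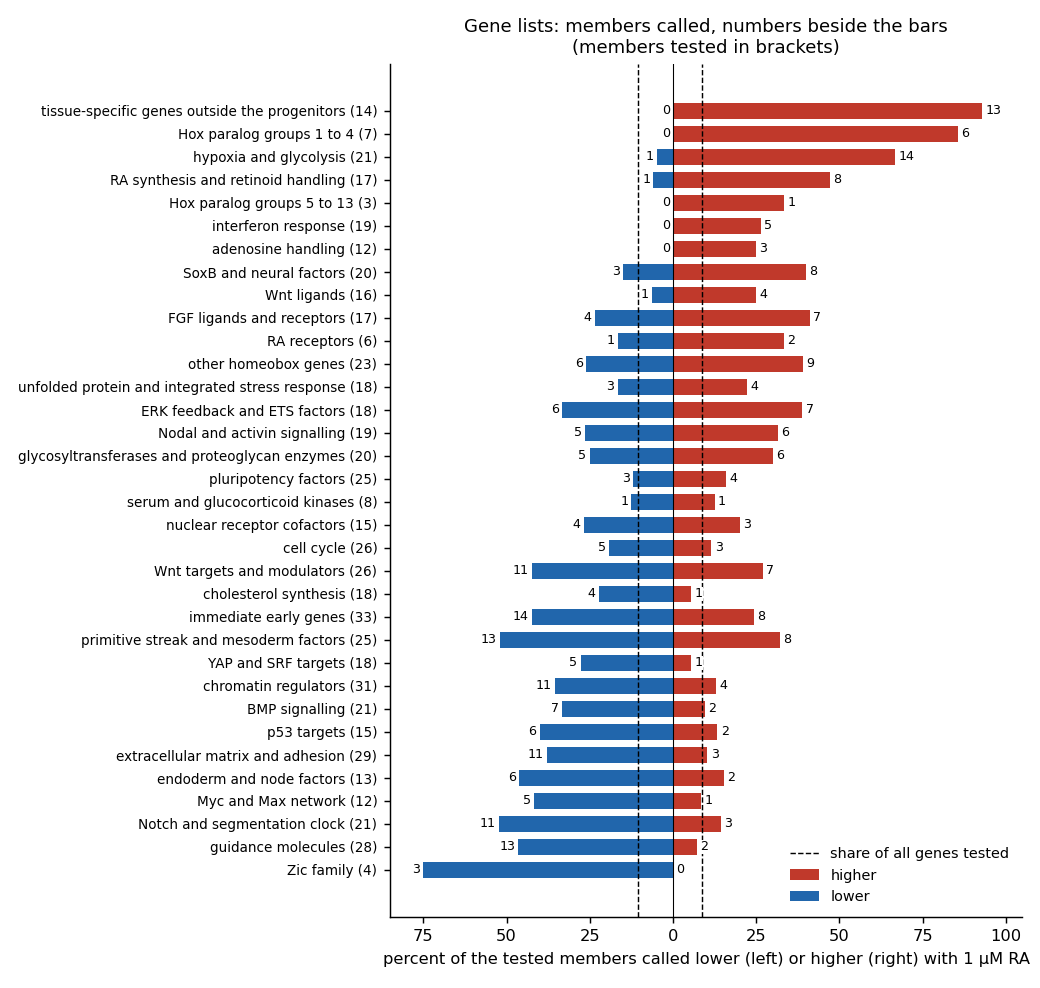
For each of 34 gene lists, the percentage of tested members called lower (blue, to the left) or higher (red, to the right) with 1 µM RA, with the numbers called beside the bars, the numbers tested in brackets and dashed lines at the shares of all genes tested (8.6% higher and 10.6% lower). The Hox list of groups 1 to 4 stands near the top with 6 of 7 higher, and the Zic list at the bottom with 3 of 4 lower.

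Long matrix, guidance and chromatin genes were often lower, but these counts moved with the offsets for GC content and length. Of 29 genes of matrix and adhesion 11 were lower and 3 higher without offsets and 5 and 7 with them. Of 28 guidance genes, which steer axons and cells, 13 were lower and 2 higher without offsets and 10 and 5 with them. *Epha2*, of an ephrin receptor, rose in both fits, from 25 and 25.3 to 39.2 and 40.3 RPKM, for a log2 fold change of 0.65 ± 0.04 (edgeR adjusted p = 9.3e-09). Among 31 chromatin regulators 11 were lower and 4 higher without offsets and 7 and 7 with them. *Kmt2d*, which encodes a histone H3 methyltransferase active at enhancers, was at 1.42 and 1.803 RPKM in DMSO and 0.9575 and 0.996 RPKM with 1 µM RA, a change of -0.72 ± 0.09 on the log2 scale (edgeR adjusted p = 1.4e-05), and its log2 fold change with offsets was -0.40. *Gse1* was at 3.61 and 3.43 RPKM in DMSO and 6.11 and 5.84 RPKM with 1 µM RA, for a log2 fold change of 0.76 ± 0.05 (edgeR adjusted p = 1.9e-08). *Hspg2*, of the matrix proteoglycan perlecan, was at 2.92 and 3.285 RPKM in DMSO and 2.37 and 2.22 RPKM with 1 µM RA with log2 fold change -0.44 (edgeR adjusted p = 6.4e-05), and was not called with offsets (edgeR adjusted p = 0.16). *Itga3*, of an integrin, was at 10.5 and 10.03 RPKM in DMSO and 15.8 and 17.4 RPKM with 1 µM RA, a change of 0.68 ± 0.06 on the log2 scale (edgeR adjusted p = 2.1e-07).

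Several genes that were hardly detected in DMSO rose to measurable levels. Of the called genes 21 rose from under 0.5 RPKM to above 1 RPKM. *Csn3*, the gene of the milk protein kappa-casein, had estimated counts of 0 and 1 in the DMSO dishes and 189 and 157 with 1 µM RA. The ratio of its counts, scaled by library size, was 369.7, with a counting interval from 65.9 to 14640. *Stra8*, which germ cells need for meiosis, had counts of 0 and 2 in DMSO and 74 and 84 with 1 µM RA, a ratio of 84.4 with a counting interval from 23.0 to 703. With so few counts in DMSO, the size of these ratios is poorly known although their direction was the same in every dish. *Lrrc10b* was at 0.0467 and 0.0455 RPKM in DMSO and 1.38 and 1.08 RPKM with 1 µM RA, for a log2 fold change of 4.69 ± 0.32 (edgeR adjusted p = 1.5e-08). *Oprd1*, of the delta opioid receptor, was at 0.179 and 0.153 RPKM in DMSO and 1.398 and 1.47 RPKM with 1 µM RA, a change of 3.09 ± 0.15 on the log2 scale (edgeR adjusted p = 2.1e-10), and *Kcna5*, of a potassium channel, was at 0.433 and 0.417 RPKM in DMSO and 1.58 and 1.82 RPKM with 1 µM RA, for a log2 fold change of 1.99 ± 0.15 (edgeR adjusted p = 4.1e-08). The gene that the files list as *Adgra3*, whose position and transcript belong to *Adgra2* in RefSeq, was at 0.282 and 0.304 RPKM in DMSO and 3.31 and 3.35 RPKM with 1 µM RA, a change of 3.50 ± 0.12 on the log2 scale (edgeR adjusted p = 7.8e-13). *Arg1*, encoding the liver enzyme arginase of the urea cycle, is not among the 21 and was already measurable in DMSO, at 1.76 and 1.54 RPKM. With 1 µM RA *Arg1* was at 17.35 and 16.8 RPKM, for a log2 fold change of 3.35 ± 0.08 (edgeR adjusted p = 1.1e-14). A list of 14 tested genes known from other tissues had 13 higher, but it was put together with these data in view. *Gfap*, its only uncalled member, was at 0.0858 and 0.0435 RPKM in DMSO and 0.0933 and 0.0419 RPKM with 1 µM RA.

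A few enzymes with higher starting levels were among the most significant rises. *Nt5e*, whose ectoenzyme CD73 forms adenosine outside the cell, was at 15.15 and 14.5 RPKM in DMSO and 44.65 and 43.2 RPKM with 1 µM RA, a change of 1.56 ± 0.04 on the log2 scale (edgeR adjusted p = 4.8e-14). *B3gnt7* and *Chsy1*, which encode glycosyltransferases acting on keratan sulfate and chondroitin sulfate chains, were at 16.5 and 16.4 RPKM in DMSO and 47.7 and 49.6 RPKM with 1 µM RA and at 15.97 and 16.1 RPKM in DMSO and 38.3 and 38.4 RPKM with 1 µM RA. Their log2 fold changes were 1.56 and 1.25 (standard errors 0.04 and 0.04, edgeR adjusted p = 4.4e-14 and 5.5e-13). These 3 genes were above 10 RPKM in DMSO, unlike most genes that rose as much. Of 20 genes for such glycan enzymes 6 were higher and 5 lower (7 and 3 with the offsets), and of 12 genes for adenosine handling 3 were higher and 0 lower.

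The dose mattered for some genes and not detectably for others. A direct test of 1 µM against 25 nM RA found 77 genes higher (0.508%) and 259 lower (1.71%) at the higher dose, and with the offsets 102 and 108. Among the 1303 genes higher at 1 µM RA than in DMSO, 69 were farther from DMSO at 1 µM than at 25 nM RA and 3 were nearer. Of the 1608 lower genes, 230 were farther at 1 µM RA and 0 nearer, but only 80 of these held in both fits, against 57 for the higher genes. All these genes were chosen by their difference in the same 1 µM RA dishes, which by itself favours farther over nearer. The split into farther and nearer genes is therefore no measure of a dose effect. *Cyp26a1* was at 178 and 178 RPKM with 25 nM RA and 283.5 and 272 RPKM with 1 µM RA, a direct log2 difference of 0.64 (standard error 0.04, edgeR adjusted p = 2.3e-07). *Fgf15* was at 22.1 and 21.7 and 33.4 and 33.3 RPKM, a difference of 0.60 (standard error 0.04, edgeR adjusted p = 2.2e-06). *Dhrs3* was at 13.6 and 13.3 and 20.8 and 20.2 RPKM, a difference of 0.66 (standard error 0.06, edgeR adjusted p = 1.7e-05). In these genes the lower dose gave most of the increase over DMSO, and the dishes of the doses did not overlap. *Lrrc10b* was at 0.676 and 0.538 and 1.38 and 1.08 RPKM, a difference of 1.03 (standard error 0.19, edgeR adjusted p = 0.012). *Nt5e* and *B3gnt7* showed differences of 0.12 (standard error 0.04, edgeR adjusted p = 0.21) and 0.10 (standard error 0.04, edgeR adjusted p = 0.28), which did not pass the test. *Csn3* and *Stra8* did not pass it either, with differences of 0.36 (standard error 0.15, edgeR adjusted p = 0.32) and 0.70 (standard error 0.21, edgeR adjusted p = 0.13). Both had already risen over DMSO with 25 nM RA, *Csn3* to 2.165 and 1.735 RPKM and *Stra8* to 0.750 and 0.767 RPKM.

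Among the lower genes that passed the direct test both with and without the offsets, *Prrc2a* and *Srcap* had the smallest p without them. They were named after their values were seen. *Prrc2a* measured 14.7 and 14.1 RPKM in DMSO, 13.2 and 12.3 RPKM at the lower dose and 9.997 and 9.25 RPKM at 1 µM RA, a direct difference of -0.41 (standard error 0.05, edgeR adjusted p = 0.00072). *Srcap*, of a chromatin remodeller, was at 4.19 and 4.57, 3.96 and 3.92 and 2.904 and 2.995 RPKM, a difference of -0.42 (standard error 0.05, edgeR adjusted p = 0.00079). In both genes the 25 nM RA dishes lay between the DMSO and the 1 µM RA dishes. Passing the direct test with the offsets was a condition of their choice and is no further support. *Lef1* was at 12.9 and 13.6 RPKM with 25 nM RA, a difference of -0.30 (standard error 0.05, edgeR adjusted p = 0.0089), and *Fst* was at 73.55 and 73.5 RPKM, a difference of -0.20 (standard error 0.04, edgeR adjusted p = 0.032). *Sgk1*, at 31.2 and 31.4 RPKM with 25 nM RA, had fallen nearly as far at the lower dose, with a difference of -0.16 (standard error 0.04, edgeR adjusted p = 0.077). *Id1* and *Evx1* showed differences of -0.19 (standard error 0.08, edgeR adjusted p = 0.3) and -0.16 (standard error 0.06, edgeR adjusted p = 0.24). Since both doses are set against the same DMSO dishes, the shared direction of their changes is no independent support.

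Some of the largest falls were uneven between dishes or concerned small RNAs. *Lars2*, the gene of a mitochondrial leucyl-tRNA synthetase, was at 101 and 44.5 RPKM in DMSO and 35.4 and 15.3 RPKM with 1 µM RA, with a log2 fold change of -1.53 ± 0.39 (edgeR adjusted p = 0.014). Its duplicates differed by more than a factor of 2 in both conditions, and without DMSO replicate 1 its log2 fold change was -0.82 and no longer called. Without 1 µM RA replicate 1 it was -2.27, and DESeq2 did not call the gene. The pseudogene *Rplp2-ps1* was at 1.01 and 1.84 RPKM in DMSO and 0.339 and 0.0163 RPKM with 1 µM RA, for a log2 fold change of -2.93 ± 0.54 (edgeR adjusted p = 0.0012), and its reads may be shared with the parent gene. Its log2 fold change was -5.51 without 1 µM RA replicate 1 and -2.05 without 1 µM RA replicate 2. *Mir6236*, listed with a length of 123 bases, was at 90.1 and 124 RPKM in DMSO and 53.01 and 54.6 RPKM with 1 µM RA, a change of -0.99 ± 0.16 on the log2 scale (edgeR adjusted p = 0.00037). It was at 91.9 and 135 RPKM with 25 nM RA, so that only the 1 µM RA dishes were low. *Prr12*, a GC-rich gene, was at 1.62 and 1.56 RPKM in DMSO and 0.787 and 0.767 RPKM with 1 µM RA, for a log2 fold change of -1.04 ± 0.09 (edgeR adjusted p = 1.9e-07), and its log2 fold change with offsets was -0.80.

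Gene sums and single transcripts were also compared. In a fit of single transcripts 873 of 22074 were called (3.95%), and they belong to 813 genes. Of the genes called by their sum, 2190 had no called transcript. In 1486 of these the gene has 1 transcript only, so that the sum is the transcript. Why these calls were lost in the fit of single transcripts was not tested. The 2190 include 72 of the 175 that rose by more than 1 and 181 of the 248 that fell by more than 0.6. In the other direction, 92 genes had a called transcript but no called sum. In *Tmem53* the transcript NM_026837 fell from estimated counts of 45.6 and 28.5 to 0.340 and 0.635 (edgeR adjusted p = 0.039) while NM_029589 rose from 1.39 and 1.39 to 18.2 and 34.1 (edgeR adjusted p = 0.029), and the sum of the gene was not called (edgeR adjusted p = 0.71). In *Odf2* NM_001177661 rose from counts of 259.1 and 205.1 to 496.6 and 395.6 (log2 fold change 1.04, edgeR adjusted p = 0.031), while the sum stayed at 48.6 and 47.9 RPKM in DMSO and 48.5 and 47.1 RPKM with 1 µM RA. Such pairs exchange counts within a gene, and the authors' estimation divided shared reads among transcripts, so that a switch of isoforms and a shift in that division cannot be told apart.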

How the data were processed

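Ribosomal-RNA-depleted total RNA of 6 dishes (2 per condition) was sequenced. The authors aligned reads to mm10 with TopHat and estimated transcript counts by expectation maximization, and the submitters' processing notes list FastQC 0.11, TopHat2 2.0.13, Bowtie2 2.2.5.0 and Partek 6.6. Use of the strand in counting is not given in the sources used here. The deposited estimated counts and the deposited RPKM values, which the authors scaled by transcript length and mapped reads, were summed over the transcripts of each gene symbol (20631 genes), and 24 symbols that had been turned into dates were kept as they stand. Count sums were rounded and tested with edgeR 4.0.16 in R 4.3.3 (TMM, filterByExpr, quasi-likelihood F test, all 6 samples in 1 fit, with 3 residual degrees of freedom); p-values were adjusted by Benjamini-Hochberg over 15143 genes, and an adjusted p under 0.1 was a call. The study names a likelihood ratio test, which was run as an alternative, as was DESeq2 1.42.0. Ratios of very low counts carry 95% counting intervals, which cover counting error only. Total counts of 31753556 to 42029348 per sample limit precision for genes under 0.5 RPKM.

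The genes and lists were chosen with earlier results of these data known. Named genes are the 15 of smallest p in each direction whose groups did not overlap, the 10 largest changes in each direction above 1 RPKM, for each list up to 6 called genes of smallest p and 3 uncalled genes of highest level, and 5 genes with a called transcript whose sum had an adjusted p over 0.5. Named after their values were seen were *2610035F20Rik*, *Ackr3*, *Casd1*, *Cxcl10*, *Cyp26b1*, *Dph5*, *Egln3*, *Egr1*, *Egr2*, *Egr3*, *Halr1*, *Hotairm1*, *Hoxaas2*, *Nr4a1*, *Pdgfrb*, *Per1*, *Prrc2a*, *Rspo3*, *Sp5*, *Srcap*, *Tbx18*, *Tinagl1* and *Tle2*. Offsets for GC content and length (loess per library, span 0.4) were added after seeing the data. The scripts were tested on simulated data. Scripts used Python 3.11.15. Some items are not reported here.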

Additional observations from a re-analysis of the deposited data

How the results depend on the processing

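The number of calls depended on the processing, and whether small or large changes were affected more differed between settings. With DESeq2, 726 genes were higher, 868 lower and 124 lower by more than 0.6 on the log2 scale. With a mean of at least 50 counts, 1222 genes were higher and 1571 lower, close to the main fit. The large changes dropped more there, to 97 genes that rose by more than 1 and 152 that fell by more than 0.6. Single transcripts in place of gene sums gave 423 higher, 450 lower and 147 lower by more than 0.6. A size threshold of 0.5 gave 372 higher genes, 1.5 gave 92 and -1 gave 53 lower genes. Leaving out 1 library at a time gave 681 to 1529 higher genes, 923 to 1497 lower genes, 157 to 189 that rose by more than 1 and 177 to 280 that fell by more than 0.6, and 484 of the 1303 higher, 641 of the 1608 lower, 135 of the 175 and 131 of the 248 genes were called in all 4 of these fits. In the direct test of the doses, 302 genes called at 1 µM RA differed, and with offsets for GC content and length 173. The cause of these differences was not tested.

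Of 246 named genes called, edgeR's likelihood ratio test lost 2, both offsets 15, DESeq2 18 of 239, and the most abundant transcript in place of the sum 75. The sign turned for *Mga* with the length offset (0.11), for *Unc5b* and *Chpf* with both offsets (0.14 and 0.15), for *Eno1* without 1 µM RA replicate 1 (0.20, and -0.36 without 1 µM RA replicate 2), and for *Rps6ka1* and *Grip1* with the most abundant transcript (0.39 and 1.09).

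The replicate numbers are not stated to pair the dishes, and the main fit did not use them. Deviations of equally numbered DMSO and 1 µM RA samples correlated by 0.0911 across genes. This value cannot decide whether the dishes were handled in pairs, because a weak shared effect could give it too. With the replicate number as a block, 1144 genes were higher, 1512 lower, 177 higher by more than 1 and 244 lower by more than 0.6.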

Other observations

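Some genes that changed strongly were neighbours. Of 15112 pairs of adjacent tested genes, both members rose by more than 1 on the log2 scale in 20 pairs, both fell by more than 0.6 in 6 pairs, and 6 pairs had 1 of each. Among all genes tested, 1.16% rose by more than 1 and 1.64% fell by more than 0.6. Whether the pairs were more frequent than these shares alone would give was not tested. Besides the Hox clusters, the pairs included *Cyp26c1* and *Cyp26a1*, *Fgf4* and *Fgf15*, *Cdx1* and *Pdgfrb*, *Gbx2* and *Ackr3*, *Tle2* and *Tle6*, and *Tbx18* and *Nt5e*, chosen for mention after their values were seen. Their starts lie from 12128 bases (*Cyp26c1* and *Cyp26a1*) to 276018 (*Gbx2* and *Ackr3*) and 624809 bases (*Tbx18* and *Nt5e*) apart. *Pdgfrb*, of a platelet-derived growth factor receptor, was at 1.17 and 1.13 RPKM in DMSO and 3.62 and 3.74 RPKM with 1 µM RA, a change of 1.67 ± 0.08 on the log2 scale (edgeR adjusted p = 6e-11), and *Ackr3*, of a chemokine receptor, was at 1.51 and 1.29 RPKM in DMSO and 2.81 and 3.03 RPKM with 1 µM RA, for a log2 fold change of 1.05 ± 0.12 (edgeR adjusted p = 5.6e-06). Among the pairs that fell, *Zic2* and *Zic5* lie on either side of the non-coding *2610035F20Rik*, which was at 4.38 and 3.56 RPKM in DMSO and 1.765 and 2.455 RPKM with 1 µM RA, a change of -0.93 ± 0.16 on the log2 scale (edgeR adjusted p = 0.00066). *Per1*, of a circadian repressor, lies beside *Hes7* and was at 1.24 and 1.43 RPKM in DMSO and 0.872 and 0.7775 RPKM with 1 µM RA, for a log2 fold change of -0.70 ± 0.12 (edgeR adjusted p = 0.00043).

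The counts that follow stand beside 8.6% higher and 10.6% lower among all genes tested, and several lie near those shares. Interferon response genes rose in 5 of 19 and fell in 0, with a median log2 fold change of 0.07. *Irf1* was at 29.95 and 27.8 RPKM in DMSO and 40.7 and 41.5 RPKM with 1 µM RA, a change of 0.50 ± 0.04 on the log2 scale (edgeR adjusted p = 4.6e-07), and *Mx2* was at 0.538 and 0.655 RPKM in DMSO and 1.475 and 1.33 RPKM with 1 µM RA, for a log2 fold change of 1.24 ± 0.17 (edgeR adjusted p = 7.4e-05). *Irf3* and *H2-D1* were not called and differed by 0.02 and 0.02. Genes of p53 signalling were lower in 6 of 15 and higher in 2 (5 and 3 with offsets for GC content and length), with *Trp53* at 52.6 and 50.9 RPKM in DMSO and 41.5 and 43.9 RPKM with 1 µM RA, a change of -0.29 ± 0.04 on the log2 scale (edgeR adjusted p = 0.00021), and *Zmat3* at 5.91 and 6.24 RPKM in DMSO and 4.3 and 4.135 RPKM with 1 µM RA, for a log2 fold change of -0.53 ± 0.05 (edgeR adjusted p = 9.1e-07). Of 26 cell cycle genes 3 were higher and 5 lower (3 and 3 with offsets), and *Cdkn1a* was at 10.45 and 11.7 RPKM in DMSO and 8.32 and 8.32 RPKM with 1 µM RA, a change of -0.41 ± 0.07 on the log2 scale (edgeR adjusted p = 0.00028). In the unfolded protein and integrated stress response 4 of 18 genes were higher and 3 lower, with *Hspa5*, of the chaperone BiP, at 338 and 332 RPKM in DMSO and 399 and 391 RPKM with 1 µM RA, for a log2 fold change of 0.23 ± 0.04 (edgeR adjusted p = 0.00035), and *Ddit4* at 42.2 and 47.8 RPKM in DMSO and 27.2 and 32.7 RPKM with 1 µM RA, a change of -0.59 ± 0.07 on the log2 scale (edgeR adjusted p = 1.3e-05). Cholesterol synthesis genes were lower in 4 of 18 and higher in 1 (4 and 2 with offsets), and targets of YAP and SRF lower in 5 of 18 and higher in 1 (3 and 1 with offsets), among them *Cyr61* at 24.3 and 20.6 RPKM in DMSO and 17.6 and 16.5 RPKM with 1 µM RA, for a log2 fold change of -0.41 ± 0.07 (edgeR adjusted p = 0.00056). The neural crest gene *Foxd3*, low in all dishes, was at 0.466 and 0.3985 RPKM in DMSO and 0.0874 and 0.0767 RPKM with 1 µM RA, a change of -2.40 ± 0.36 on the log2 scale (edgeR adjusted p = 0.00017).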
